A study of Homo sapiens with 3 samples.

Results

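Pluripotency factors and markers of tumour-initiating melanoma cells were followed in 1205Lu cells through a change of growth form and back. The set held 10 genes, POU5F1, NANOG, KLF4, LIN28, LIN28B, SALL4, DPPA4, PROM1, ABCB5 and ALDH1A1, of the 30982 gene names on the array. Every probe outside the control spots whose gene name on the array equals one of these symbols was taken, which gave 14 of 41000 probes, each printed in 1 spot. POU5F1 had 4 probes, LIN28B had 2 and the other genes had 1 each. The rule for taking probes used no measured value, but the 10 genes were chosen with earlier results of these data known. All 10 genes were found in the current RefSeq gene table by accession, where LIN28 is now called LIN28A.

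1205Lu is a human melanoma line that came from a lung metastasis of WM793 melanoma cells grown in mice. The original monolayer (OM) had 14 days in standard medium with 10% foetal calf serum. The melanoma bodies (MB), multicellular spheroids that stay attached to the dish, had 14 days in a medium for human embryonic stem cells (hESC medium) with 20% serum replacement. The new monolayer (NM) came from such bodies (14 days in hESC medium) returned to standard medium for 10 days, with the remaining bodies removed. Each population was 1 culture of this 1 line on 1 array, so no test across samples could be made and no p-value is given. Growth form and medium changed together between OM and MB and cannot be told apart. The 3 comparisons also share their arrays, so they are not independent of each other.

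POU5F1 (OCT4) and NANOG are homeodomain transcription factors that hold the pluripotent state of embryonic stem cells, and KLF4 is a zinc finger factor used with POU5F1 to reprogram somatic cells. SALL4 and DPPA4 are nuclear proteins of the same network, and LIN28 and LIN28B bind RNA and block maturation of the let-7 microRNAs. PROM1 (CD133), a membrane glycoprotein, ABCB5, a transporter of the ATP-binding cassette family, and ALDH1A1, an enzyme that oxidises retinal to retinoic acid, have each been used to sort cells that start tumours in transplant assays.

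Of the 10 genes, 3 were well above background on all 3 arrays, namely POU5F1, KLF4 and SALL4. ABCB5 was well above background on MB alone and LIN28B on NM alone. NANOG, LIN28, DPPA4, PROM1 and ALDH1A1 were not well above background on any array. Among member probes that exceeded 100 a.u. on at least 1 array of a pair, none differed by 5-fold, and for the dimmer ABCB5 and LIN28B only lower bounds of the fold could be given. KLF4 was lowest in MB and highest in NM, SALL4 was highest in OM, and POU5F1 was lowest in NM.

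Probe sequences are shown 5′ to 3′ as deposited. The order of POU5F1 over the 3 arrays rests on its probe 1, which is not shown. Probes 3 and 4 of POU5F1 are shown because they overlap, and the capitals mark the 51 bases they share, so that they are close to 1 measurement made in 2 spots.

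POU5F1 probe 3: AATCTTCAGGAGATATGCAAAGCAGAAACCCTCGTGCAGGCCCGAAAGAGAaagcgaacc

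POU5F1 probe 4: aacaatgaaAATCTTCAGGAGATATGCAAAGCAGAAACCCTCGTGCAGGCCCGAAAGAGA

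The probes of KLF4, SALL4 and ABCB5 follow, since the differences between arrays rest on them. No base is marked in these 3.

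KLF4: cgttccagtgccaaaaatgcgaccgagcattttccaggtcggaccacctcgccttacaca

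SALL4: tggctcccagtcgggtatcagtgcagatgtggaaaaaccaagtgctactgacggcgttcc

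ABCB5: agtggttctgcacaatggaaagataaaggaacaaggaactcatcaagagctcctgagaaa

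The deposited positions are in the hg17 build. POU5F1 lies on the minus strand of chromosome 6, where probe 1 covers chr6:31240157-31240216. Probe 2 spans chr6:31241423-31241706, a stretch of 284 bases for a probe of 60, so it crosses an intron. Probes 3 and 4 cross an intron as well, at chr6:31240995-31241338 and chr6:31241004-31241347. The KLF4 probe lies at chr9:107327604-107327663 and the SALL4 probe at chr20:49834263-49834322, both on the minus strand and each in 1 unbroken stretch. The ABCB5 probe lies at chr7:20568382-20568441 on the plus strand, also unbroken. The files do not state which exon or which part of the transcript a probe lies in, and no annotation of this build was used here.

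Signals are the processed intensities in arbitrary units (a.u.), before any scaling, with the error that the scanner software estimates for the spot. A probe was measured where the software called it well above background, and the lowest such signal was 20.9 a.u. on OM, 19.4 a.u. on MB and 29.1 a.u. on NM. Over the whole array, the OM, MB and NM arrays had 70.1%, 71.0% and 64.7% of probes well above background. Of the 14 member probes the shares were 28.6%, 50.0% and 28.6% in the same order, which is 4, 7 and 4 probes. Folds were computed relative to the mean signal of 3 housekeeping genes, GAPDH, ACTB and HSP90AA1, on the same array. Over all probes measured on both arrays the median log2 ratio was 0.10 for MB over OM, 0.03 for MB over NM and 0.07 for NM over OM. Scaling to the spike-in controls instead moved the median of MB over OM to -0.21. For MB over OM, repeated spots of the same probe gave an SD of the log2 ratio of 0.081 at signals of 100 to 1000 a.u. and of 0.22 at 20 to 100 a.u., which is technical error only.

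Melanoma markers fitted the label of the line in part. Of 10 melanocyte and melanoma genes, the OM, MB and NM arrays had 8, 8 and 7 well above background, among them MIA, S100B, PRAME and SOX10. The pigment enzymes TYR and TYRP1 were not well above background on any array. The pigment enzyme DCT was on all 3, at 66.7, 62.8 and 64.1 a.u. on OM, MB and NM. SILV was as well, at 286, 209 and 271 a.u. The fibroblast collagens COL1A1, COL1A2 and COL3A1, the endothelial CDH5 and the leukocyte PTPRC and LYZ were not well above background on any array. Fibroblast genes well above background numbered 1, 2 and 1 of 6 on OM, MB and NM, endothelial genes 2 of 5 and leukocyte genes 3 of 5 on each array. The summed signal of the endothelial list was 247 a.u. on OM, 506 a.u. on MB and 340 a.u. on NM, and the part of other cells in the results was not tested. In bulk RNA, fewer cells that express a gene and less RNA per cell cannot be told apart.

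**Figure D1:**
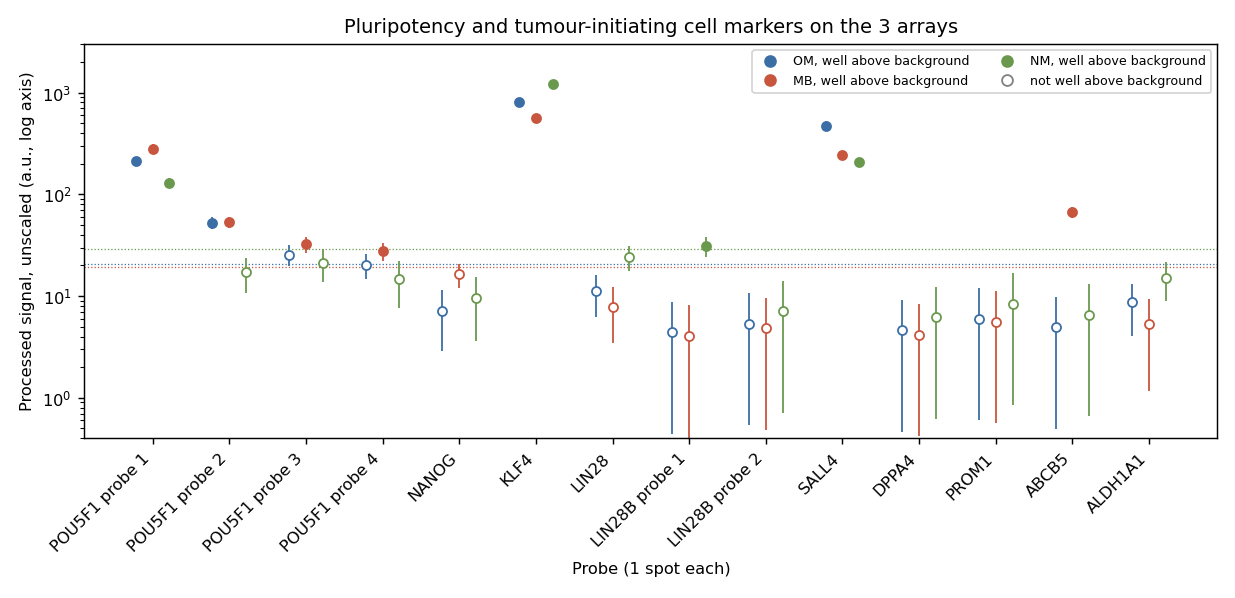
Unscaled processed signal (a.u., log axis) of the 14 probes on the OM, MB and NM arrays, with the scanner software's error for each spot. Filled points were well above background, open points were not, dotted lines give the lowest signal well above background on each array, and error bars that come near or past 0 are shortened to stay on the log axis. POU5F1 probe 1, KLF4 and SALL4 have 3 filled points each, and ABCB5 has 1, at 66.8 a.u. on MB.

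POU5F1 was read by probe 1 at 212 ± 21.8 a.u. on OM, 281 ± 28.4 a.u. on MB and 130 ± 14.8 a.u. on NM. MB was the highest array and NM the lowest. MB was 1.36-fold above OM, a log2 ratio of 0.44 ± 0.21 by the software's error, and 1.93-fold above NM, a log2 ratio of 0.95 ± 0.22. NM was 1.43-fold below OM, with a log2 ratio of -0.51 ± 0.22. Across 8 settings of scaling, background correction and value source the log2 ratio of MB over OM ran from 0.13 to 0.44, and that of MB over NM from 0.65 to 1.11. The value table, 1 of the 8, holds the same intensities and repeats the reported ratios. The rise from OM to MB was 2.11 times the SD of its error, and its lowest value, 0.13, came with spike-in scaling. NM stayed the lowest array under each setting.

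The other POU5F1 probes were dimmer and differed from probe 1 in part. Probe 2 read 52.4 ± 7.0 a.u. on OM and 53.0 ± 6.77 a.u. on MB, while NM, at 17.1 ± 6.47 a.u., was not well above background. Its log2 ratio of MB over OM was 0.05 ± 0.27, so OM and MB differed by less than the error on this probe, and the sign of the ratio changed with the scaling, from -0.26 to 0.05. Both lay above NM, MB by at least 1.63-fold and OM by at least 1.58-fold.

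Probe 3 read 25.5 ± 5.97, 32.4 ± 5.83 and 21.2 ± 7.54 a.u. on OM, MB and NM, and only MB was well above background. Probe 4, which shares most of its bases with probe 3, read 20.4 ± 5.54, 27.4 ± 5.43 and 14.9 ± 7.19 a.u., again with only MB well above background. On probe 3, MB was 1.3-fold above the probe's own OM reading, so that value is a ratio and not a bound. On probe 4, MB was 1.34-fold above the lowest signal called well above background on OM. Neither fold takes in the spot errors, and the error ranges of OM and MB overlapped on both probes. With spike-in scaling these folds were 1.05 and 1.09, so the lead of MB over OM on this pair was not separable from the scaling either. No fold of MB over NM is given for either, because after scaling their MB signals lay under the lowest signal called well above background on NM.

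POU5F1 has processed copies elsewhere in the genome, and some of its probes match their transcripts. The files list for probe 2 a further mRNA from a copy on chromosome 12 (POU5F1P3 in the current table). The array carries a separate probe for that mRNA, which shares a run of 42 bases with probe 2. It was well above background on all 3 arrays, at 28.8 ± 5.45 a.u. on OM, 38.8 ± 5.70 a.u. on MB and 31.8 ± 7.04 a.u. on NM. For probes 2, 3 and 4 the files also list a further RefSeq transcript without coding status, whose signal was not examined. A probe for a copy on chromosome 1, with 19 bases in common with probes 3 and 4, read 9.89, 15.6 and 21.1 a.u., with no array well above background. The share of signal that copies gave to probes 2, 3 and 4 was not tested, and those values are uncertain as levels of POU5F1. Probe 1 shared at most 9 bases in a row with either copy's probe. That compares probes and not the copies' transcripts, so whether copies gave signal to probe 1 was not tested either.

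NANOG, which acts beside POU5F1, read 7.13 ± 4.22 a.u. on OM, 16.4 ± 4.21 a.u. on MB and 9.52 ± 5.90 a.u. on NM. All 3 values were below the lowest signal called well above background on their array, so no fold is given. They did differ from the local background by the software's weaker test of a positive and significant spot. The probe covers chr12:7839754-7839813.

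KLF4 was the member with the opposite order to POU5F1. It read 810 ± 81.1 a.u. on OM, 561 ± 56.2 a.u. on MB and 1206 ± 121 a.u. on NM. MB was the lowest array and NM the highest. MB was 1.41-fold below OM (log2 ratio -0.50 ± 0.20) and 2.40-fold below NM (log2 ratio -1.26 ± 0.20), and NM was 1.7-fold above OM (log2 ratio 0.76 ± 0.20). Each difference was larger than the error of the spots. The order of the 3 arrays was kept under all 8 settings, of which the value table repeats the reported ratios. The log2 ratios were -0.80 to -0.49 for MB over OM, -1.43 to -1.11 for MB over NM and 0.58 to 0.76 for NM over OM.

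SALL4 followed a different course and did not return to its starting level. It read 472 ± 47.4 a.u. on OM, 242 ± 24.6 a.u. on MB and 207 ± 21.5 a.u. on NM. OM was the highest array, and MB and NM lay close together. MB was 1.91-fold below OM, a log2 ratio of -0.93 ± 0.21, and NM was 2.00-fold below OM, a log2 ratio of -1.0 ± 0.21. MB and NM differed by a log2 ratio of 0.07 ± 0.21, less than the error, and the sign of that ratio changed with the scaling, from -0.13 to 0.23. Both falls from OM held in direction under every setting, from -1.24 to -0.80 for MB and from -1.19 to -0.78 for NM. DPPA4, another pluripotency-associated nuclear protein, read 4.59, 4.19 and 6.21 a.u. on OM, MB and NM, with no array well above background.

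**Figure D2:**
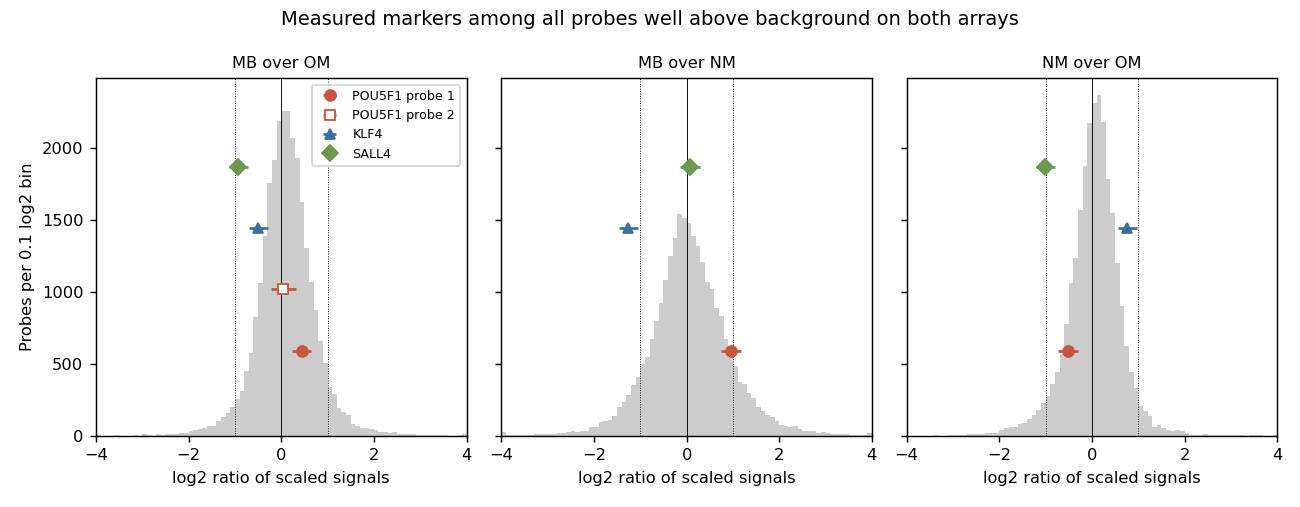
Log2 ratio of housekeeping-scaled signals for the member probes measured on both arrays (points, with the SD from the software's error), over a histogram of all probes measured on both arrays, for 27953 probes in MB over OM, 26095 in MB over NM and 26177 in NM over OM. The height of a point has no meaning, dotted lines mark 2-fold, and ratios beyond the axis are counted in the end bins. KLF4 lies left of -1 in MB over NM, at -1.26, and SALL4 at -1.0 in NM over OM.

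The LIN28 proteins keep let-7 low in embryonic cells and some tumours. LIN28 read 11.2 ± 4.95 a.u. on OM, 7.85 ± 4.39 a.u. on MB and 24.4 ± 6.92 a.u. on NM, and none of these was well above background. LIN28B probe 1 read 4.40 ± 4.38 a.u. on OM, 4.06 ± 4.04 a.u. on MB and 31.1 ± 6.82 a.u. on NM. It was well above background on NM alone, barely over the lowest signal so called there. NM was at least 1.69-fold above OM and at least 1.79-fold above MB on this probe. LIN28B probe 2, which crosses an intron, read 5.36, 4.81 and 7.12 a.u., none of them well above background. The LIN28B signal on NM thus rested on 1 of 2 probes. Over the array, 0.549% of probes were well above background on NM alone, against 1 of the 14 member probes.

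Of the surface and enzyme markers, ABCB5 was the only one measured on any array. It read 4.94 ± 4.92 a.u. on OM, 66.8 ± 8.0 a.u. on MB and 6.58 ± 6.55 a.u. on NM. MB stood clear of both monolayers, which lay at background. MB was at least 3.27-fold above OM and at least 2.06-fold above NM, and with spike-in scaling these bounds were 2.65 and 1.84. Before background subtraction the median pixel of the spot read 45, 113.5 and 59.5 on OM, MB and NM, so the difference was also in the raw scan. The spot had 24 neighbouring probes within 2 positions, of which 2 were also well above background on MB alone and 1 of those was above 100 a.u. Whether the position on the array bore on the value was not tested. ABCB5 stayed below the limit of 100 a.u. and so could not be called at 5-fold. Probes well above background on MB alone made up 2.58% of the array, and 3 of the 14 member probes, ABCB5 and the overlapping POU5F1 probes 3 and 4, were among them.

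PROM1 and ALDH1A1 were not measured. PROM1 read 5.99, 5.61 and 8.41 a.u. on OM, MB and NM, which are values at the software's floor for spots without significant signal. ALDH1A1 read 8.65 ± 4.55 a.u. on OM, 5.29 ± 4.11 a.u. on MB and 15.2 ± 6.29 a.u. on NM. Its values were positive and significant by the weaker test but below the lowest signal well above background on each array. No fold is given for either gene, and a level under these limits was not detectable on these arrays.

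At the 5-fold threshold, with the brighter array above 100 a.u., 0 of 14 member probes passed in each comparison, while the share of all probes that passed was 0.913% for MB against OM, 2.42% for MB against NM and 0.881% for NM against OM. Only 3 of the 14 member probes exceeded 100 a.u. on any array (POU5F1 probe 1, KLF4 and SALL4), and so could have passed. Among probes measured on both arrays, 0 of 4 member probes were 2-fold higher and 0 of 4 were 2-fold lower in MB than in OM, against 6.01% and 3.67% of all such probes. Between MB and NM, 0 of 3 were 2-fold higher in MB and 1 of 3, KLF4, was 2-fold lower, against 11.9% and 9.01% of all. Between NM and OM, 0 of 3 were 2-fold higher in NM and 1 of 3, SALL4, was 2-fold lower by a narrow margin, against 3.67% and 4.55% of all. The median log2 ratio of the measured member probes was -0.22 for MB over OM, 0.07 for MB over NM and -0.51 for NM over OM. With 3 or 4 probes of unlike genes (in MB over OM, 2 of the 4 from POU5F1), these counts and medians describe the members and are not evidence of a common shift.

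**Figure D3:**
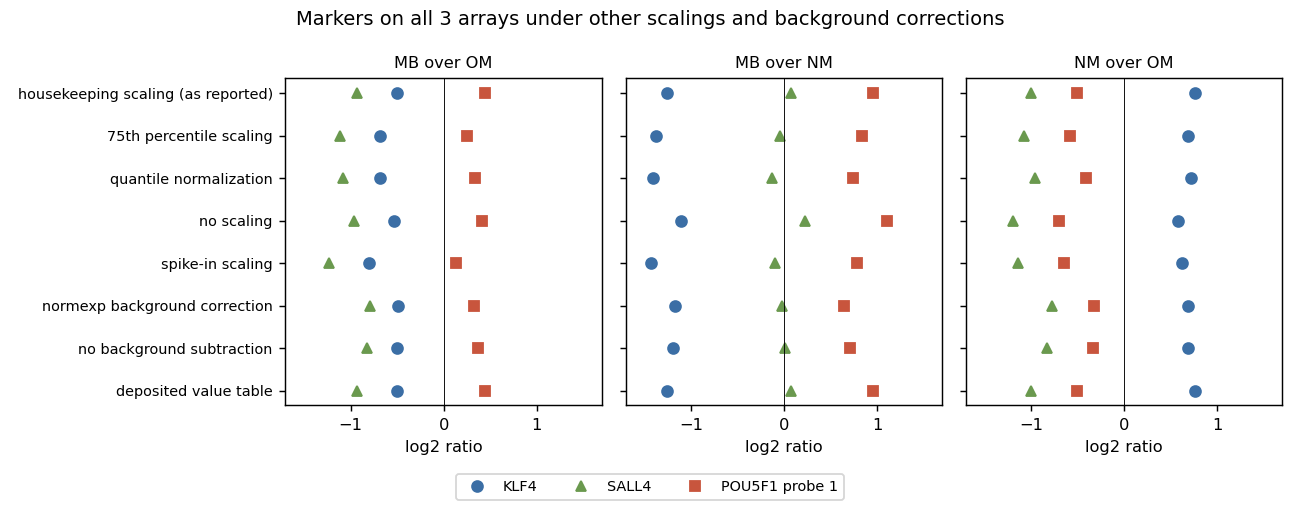
Log2 ratios of KLF4, SALL4 and POU5F1 probe 1 (points) for the 3 comparisons, under the housekeeping scaling reported in the text and 7 other scalings, background corrections or value sources. The deposited value table holds the same intensities and repeats the reported ratios. KLF4 stays below 0 in both MB comparisons and above 0 in NM over OM, while SALL4 falls on both sides of 0 in MB over NM, from -0.13 to 0.23.

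Other genes of the same pathways were read from 6 lists, with 1 probe per gene for medians, the one with the highest mean signal. Of 105 distinct genes on the array, 2 passed 5-fold between MB and OM (SOX2 and RXRG), 5 between MB and NM (SOX2, RXRG, CYP26B1, CD24 and KLF7) and 0 between NM and OM. Of all probes, 0.913%, 2.42% and 0.881% passed in these comparisons, in the same order. These shares are per probe, while a list gene counted where any of its probes passed, so the units differ. As the list genes that passed are few and the lists were assembled with earlier results known, the counts are descriptions.

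In the pluripotency network, 16 of 32 other genes were well above background on all 3 arrays and 15 on none. The undetected genes included TDGF1, a NODAL co-receptor, LEFTY1, a NODAL inhibitor, and DPPA2, DPPA3 and DPPA5. SOX2, the partner of POU5F1 on DNA and also a neural stem cell factor, read 559 ± 56.0 a.u. on OM, 7974 ± 797 a.u. on MB and 287 ± 29.3 a.u. on NM. MB exceeded OM by 14.6-fold and NM by 24.9-fold, and a further probe of the gene gave 12.4-fold and 25.6-fold. Both its monolayer values lay far below MB. The measured folds of POU5F1 probe 1, KLF4 and SALL4 reached at most 2.40 under the same scaling. Of the genes named for brightness, PODXL, a sialomucin of the stem cell surface, was 1.81-fold higher in MB than in OM, and CD9, a tetraspanin, was 1.54-fold higher. GAL, which encodes the neuropeptide galanin, fell in MB to 3219 a.u. from 10368 a.u. on OM, and stood at 13258 a.u. on NM. Of 17 genes measured on OM and MB, 2 were 2-fold higher and 1 was 2-fold lower in MB, against 6.01% and 3.67% of all probes. Their median log2 ratio was 0.53, beside 0.10 for all probes.

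For LIN28 and let-7, 14 of 16 listed genes were on the array, and all 14 were well above background on all 3 arrays. They include RNASEN (DROSHA), DGCR8 and DICER1, which cut microRNA precursors. None was 2-fold different between MB and OM, where 6.01% of all probes were 2-fold higher and 3.67% lower, and the median log2 ratio was 0.09. Against NM, 2 of the 14 were 2-fold higher in MB, beside 11.9% of all probes. DICER1 read 1008, 1850 and 540 a.u. on OM, MB and NM, 3.08-fold higher in MB than in NM, and DGCR8 read 4194, 6277 and 2084 a.u., 2.70-fold higher. DICER1 and DGCR8 were picked after their values were seen. RNASEN was within 1.02-fold between MB and NM.

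In the list of other tumour-initiating cell markers, 13 of 18 genes were well above background on all 3 arrays and 4 on none, KIT among the latter. CD44, the hyaluronan receptor, read 137768, 66081 and 183717 a.u. on OM, MB and NM. MB was 2.04-fold below OM and 3.1-fold below NM. CD24, a surface glycoprotein, read 277 ± 28.3, 59.1 ± 7.95 and 274 ± 28.6 a.u., 4.58-fold lower in MB than in OM and 5.17-fold lower than in NM. The intermediate filament gene NES went the other way, at 62112, 95022 and 17473 a.u., and was 4.88-fold higher in MB than in NM. NGFR (CD271), a neurotrophin receptor picked after its values were seen, read 123, 346 and 525 a.u. on OM, MB and NM. MB was 2.88-fold above OM for this gene and NM 4.86-fold above, so that, like SALL4, it did not return to the OM level in NM. BMI1, a Polycomb protein, was 2.22-fold higher in MB than in OM, and the integrin ITGA6 was 1.31-fold higher. The list's median log2 ratio was 0.52 for MB over OM, 0.22 for MB over NM and 0.17 for NM over OM.

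Beside ABCB5, 8 of 9 other drug transporters of its family were well above background on all 3 arrays. ABCB1, its close relative and the multidrug efflux pump, was picked after its values were seen and read 139, 381 and 133 a.u. on OM, MB and NM. Its MB signal exceeded OM by 2.80-fold and NM by 2.57-fold, so MB stood above both monolayers as for ABCB5. ABCG2, the efflux pump behind the side population of stem cells, moved the other way, at 750, 274 and 963 a.u. It was 2.67-fold lower in MB than in OM and 3.91-fold lower than in NM. ABCC1, ABCC3 and ABCC5 stayed within 1.69-fold between MB and either monolayer. Of 8 transporters measured on both arrays, 1 (ABCB1) was 2-fold higher and 1 (ABCG2) was 2-fold lower in MB than in OM. The counts were the same for MB against NM. Of all such probes, 6.01% were higher and 3.67% lower against OM, and 11.9% and 9.01% against NM. The list's median log2 ratio of MB over OM was 0.29.

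Beside ALDH1A1, 16 of 22 aldehyde dehydrogenase and retinoic acid genes were well above background on all 3 arrays and 4 on none, including ALDH1A2. ALDH1A3, a related retinal dehydrogenase, read 67565, 41719 and 81166 a.u. on OM, MB and NM, 1.58-fold lower in MB than in OM and 2.17-fold lower than in NM. RXRG, a retinoid receptor, was measured on MB alone, at 233 ± 23.9 a.u., at least 11.4-fold above OM and at least 7.19-fold above NM. CYP26B1, which degrades retinoic acid, passed 5-fold on 1 probe, which read 111 ± 12.1, 367 ± 37.0 and 58.1 ± 8.66 a.u. and was 3.37-fold higher in MB than in OM and 5.67-fold higher than in NM. Its brightest probe was 3.14-fold and 3.39-fold higher. DHRS3, which reduces retinal, was 3.89-fold higher in MB than in OM and 2.59-fold higher in NM than in OM. STRA6 and ALDH7A1 stayed within 1.13-fold in each comparison.

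Of the KLF family beside KLF4, all 12 genes were well above background on all 3 arrays. Between MB and NM, 0 of 12 were 2-fold higher and 5 were 2-fold lower in MB, against 11.9% and 9.01% of all probes measured on both arrays. The median log2 ratio was -0.54, beside 0.03 for all probes and -1.26 for KLF4. Between NM and OM, 2 were 2-fold higher and 0 lower in NM, against 3.67% and 4.55% of all. The median was 0.58, beside 0.76 for KLF4. Between MB and OM the median was 0.05, and 1 of 12, KLF7, was 2-fold lower, against 3.67% of all. KLF7 read 942 ± 94.3, 210 ± 21.4 and 1079 ± 108 a.u., 4.38-fold lower in MB than in OM and 5.73-fold lower than in NM. KLF9 differed by at most 1.5-fold in any comparison and KLF6 by 1.22-fold, while KLF16 was 2.00-fold lower in MB than in NM.

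**Figure D4:**
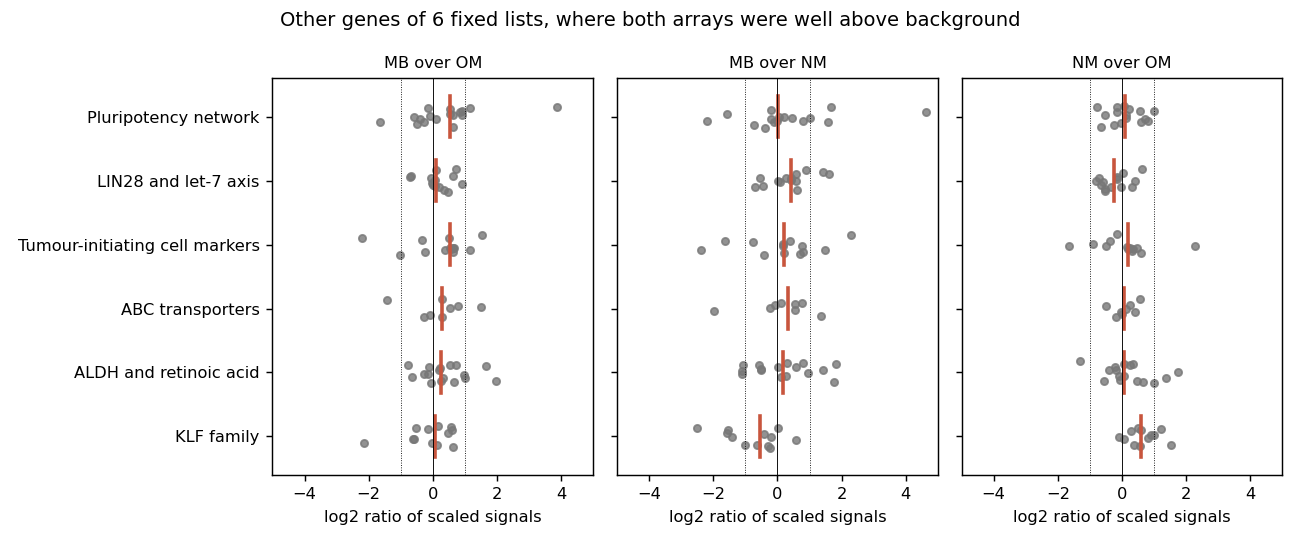
Log2 ratio of housekeeping-scaled signals for each gene of the 6 lists that was well above background on both arrays (grey points, spread vertically at random for legibility), with the list median as a bar and 2-fold as dotted lines. SOX2 is the point near 3.87 in MB over OM, and the bar of the KLF family lies at -0.54 in MB over NM and at 0.58 in NM over OM.

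The genes with the most similar pattern to each member measured on all 3 arrays were found by distance in the pair of log2 ratios MB over OM and NM over OM, over 18027 candidate probes, 1 a gene. For POU5F1 probe 1 they were DNAJA2, BVES and SPTY2D1, and 138 probes lay within 0.1. For KLF4 they were UNQ2446, C17orf49 and RPL36A, with 46 within 0.1. For SALL4 they were the histone genes HIST1H2BF and HIST1H2BE and the glutathione synthesis gene GCLM, with 8 within 0.1. The counts within 0.1 depend on how many probes have ratios of that size, and do not rank the members. Likeness over 3 arrays rests on 2 ratios.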

How the data were processed

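Total RNA from the 3 populations was labelled with Cy3 and hybridised to 3 Agilent 1-colour arrays on 1 slide, so no slide effect could be fitted. The authors deposited the intensity of each spot from Agilent Feature Extraction (version 9.5), with background subtracted, spatial trends removed, low values replaced by a surrogate and no scaling between arrays. A deposited value table held the same intensity values (130128 of 130128 within 0.1%), with column medians of 213.451 for OM, 226.436 for MB and 175.131 for NM, unscaled, uncentred and with no ratio direction.

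Control spots and outlier spots (77, 79 and 81 on OM, MB and NM, none of a member) were left out, spots of a probe averaged, and each array scaled to its mean housekeeping signal (GAPDH, ACTB, HSP90AA1). The study's methods name HSP90 only, and HSP90AA1 was taken as it is printed in 10 spots. A call needed 5-fold and an unscaled signal above 100 a.u. on the brighter array, and 2-fold calls used probes well above background on both arrays. Where only 1 array was well above background, the fold is a bound, with the dimmer value taken as the lowest signal well above background there. Where the probe's own dimmer signal was higher, it was taken instead, and the fold is then a ratio of the readings. Neither form takes in the spot error. Errors are the software's spot error, which covers neither cultures nor labelling. The number of arrays limits the precision.

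The members and lists were chosen with earlier results of these data known. The text names all members, list genes past 5-fold, at most 4 others per list (the brightest) and the 3 genes closest in pattern to each member measured on all arrays. Alternatives were scaling to the 75th percentile or 7 spike-in probes, quantile normalization, no scaling, no background subtraction, normexp correction with an offset of 50 (R 4.3.3, limma 3.58.1), other filters and the value table. Python 3.11.15, numpy 2.4.6, pandas 2.3.3 and matplotlib 3.10.9 were used. Some items are not reported here.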

Additional observations from a re-analysis of the deposited data

How the results depend on the processing

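No paired analysis was possible because each population had 1 array, and for the same reason no array could be left out. Across the log2 ratios and lower bounds of the members, 83 of 94 values under other scalings, background corrections or the value table moved by less than the spot error, and 11 moved by more. The 83 include 10 values of the value table, which holds the same intensities, so that these could not move. The sign changed for SALL4 between MB and NM and for POU5F1 probe 2 between MB and OM, both within the spot error as reported. Spike-in scaling gave 7 of those 11. Detection depended on the call. With positive and significant spots in place of spots well above background, the OM, MB and NM arrays detected 6, 7 and 7 of 10 genes, the additions being NANOG, LIN28 and ALDH1A1 on each array. Requiring every probe of a gene left 2 on OM, 4 on MB and 2 on NM. Without the filter on dim signals, 1 member probe passed 5-fold for MB against OM (ABCB5), 2 for MB against NM (ABCB5 and LIN28B probe 1) and 1 for NM against OM (LIN28B probe 1), all against values at the floor, whose size the software set. At 2-fold, 1 passed for MB against NM and 1 for NM against OM. Of the list genes, 2 passed for MB against OM, with 3 under 75th percentile scaling and 4 under spike-in scaling. The count was 1 under normexp and 1 where both arrays had to be well above background. For MB against NM 5 passed, with 6 under spike-in scaling, 4 under that filter on both arrays and 1 under normexp. For NM against OM 0 passed, with 1 under quantile normalization. The cause of these changes was not tested beyond the filters' own construction. Signals under about 100 a.u. limit what can be said of ABCB5, LIN28B and POU5F1 probes 2, 3 and 4.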
